A study of Drosophila melanogaster with 4 samples.

Results

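RNA precipitated with LARK from the fly brain was examined for 10 genes of calcium signalling: calmodulin (Cam), Frq1, CaMKII, CaMKI, CanA1, Nckx30C, Calx, SERCA, RyR and Itpr. The members were chosen by name, and every probe set annotated to one of them was taken; the probe set of Cam carried no symbol in the platform annotation and took its name from the list of LARK targets that the study drew up. In this way 8 of the 10 genes were matched to 9 probe sets, among 10872 genes with a probe set of 1 symbol on the array. CaMKII and CaMKI, kinases that calcium-loaded calmodulin switches on, matched no probe set and were not analysed here. Nckx30C had 2 probe sets, which are given separately throughout.

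LARK, an RNA-binding protein of the fly circadian system, was precipitated with an affinity-purified antibody from lysates of hand-dissected brains of wild-type Drosophila melanogaster (Canton-S) at the pharate adult stage, just before emergence from the pupal case. Each lysate pooled about 1000 brains and gave 1 LARK immunoprecipitate (LARK IP) and 1 total RNA sample set aside before the precipitation. With 2 such experiments there were 2 LARK IP and 2 total RNA samples, each hybridised to 1 Affymetrix array. The washes were mild and equal amounts of RNA were labelled, so a signal shows the share of a transcript in its sample and not the amount precipitated. All samples come from pools of whole brains with no genetic or drug treatment, and no precipitation without the antibody was among the arrays analysed here.

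Calcium ions that enter a neuron or leave its internal stores are read by small sensor proteins. The best known is calmodulin, which binds calcium through EF-hand loops and then activates kinases such as CaMKII and the phosphatase calcineurin. The signal is ended by exchangers in the plasma membrane and by a pump of the endoplasmic reticulum, while the ryanodine receptor and the inositol trisphosphate receptor release the stored calcium. In flies these proteins serve transmitter release, synaptic plasticity and phototransduction.

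The comparison of LARK IP with total RNA asked which of these transcripts were enriched by the immunoprecipitation. Transcripts of both sensors, Cam and Frq1, and of the exchanger Nckx30C at its brighter probe set were higher in LARK IP, by 4.02 to 6.80 times on average. No probe set passed the test as lower; the store channel RyR had the lowest ratio, at signals under background in both LARK IP samples. SERCA, Itpr, the other Nckx30C probe set, Calx and CanA1 were dim, and of these only Calx had groups that did not overlap.

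Signals were compared as log2(signal + 0.8), and a fold change is on this scale, which understates changes of low signals. The 3492 probe sets with the highest mean signal (the top 25%) were tested with limma, the experiment entering as a block, and p-values were adjusted over all 3492 by the Benjamini-Hochberg method with a threshold of 0.05. Of the 9 member probe sets, 7 from 6 genes were bright enough for the test. Background was set at a signal of 4.73, the level reached by control probe sets without a target in fly RNA, and 33.0% to 35.0% of probe sets lay above it on the 4 arrays. Only 4 of the 9 member probe sets, those of Cam, Frq1, SERCA and the brighter one of Nckx30C, were above it on all 4 arrays.

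**Figure D1:**
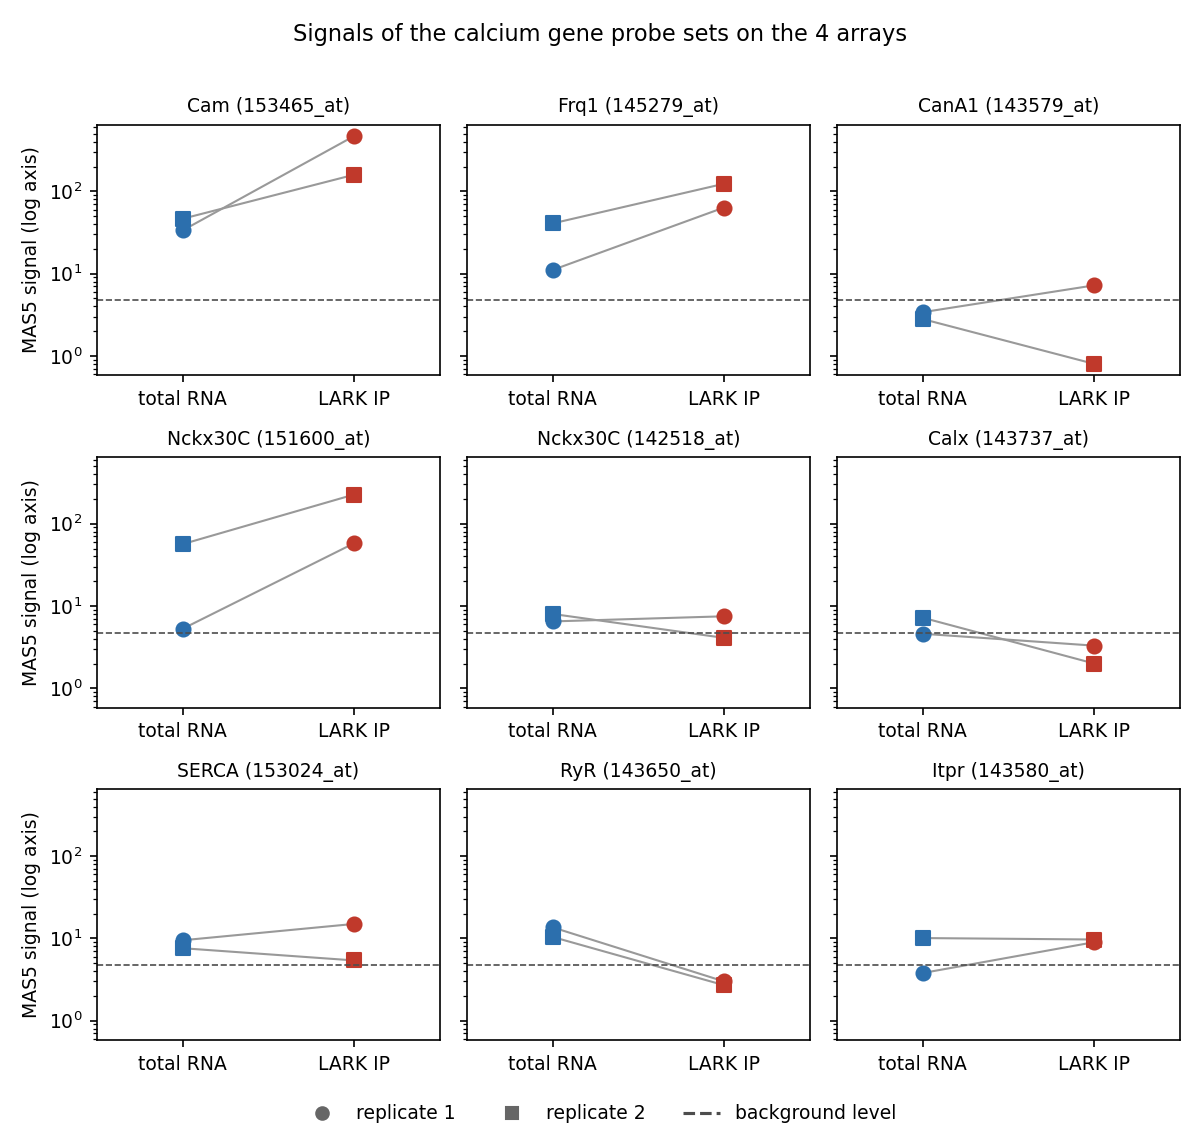
Each panel plots the MAS5 signal (log axis) of 1 probe set in total RNA (blue) and LARK IP (red), with circles for replicate 1, squares for replicate 2, lines joining samples of 1 lysate and a dashed line at the background of 4.73. The lines of Cam, Frq1 and the Nckx30C probe set 151600_at rise in both experiments, with total RNA between 5.3 and 56.6 and LARK IP between 57.9 and 469.2, while RyR drops from 13.6 and 10.4 to 3.0 and 2.7.

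Among the sensors, Cam (CG8472, probe set 153465_at) encodes calmodulin itself and had the highest mean ratio of the members. Its signal was 469.2 and 159.1 in LARK IP replicates 1 and 2 and 33.6 and 46.5 in total RNA replicates 1 and 2. Both LARK IP samples were above both total RNA samples, and the lower LARK IP signal was still 3.42 times that of its own lysate. The log2 ratio was 3.77 in replicate 1 and 1.76 in replicate 2, a mean of 2.76 ± 1.42 (SD, n = 2) or 6.80-fold (limma, SE 0.40, adjusted p = 0.0103). This SE is smaller than the 2 ratios alone would give. The fit draws it mostly from probe sets of like signal (7.85 prior against 1 residual degree of freedom). Without that variance trend the adjusted p was 0.258 (limma). The total RNA samples were close to each other, differing 1.38-fold, whereas LARK IP replicate 1 was 2.95 times replicate 2, so most of the spread of the ratio lay on the LARK IP side. Against total RNA from the opposite lysate, LARK IP 1 was still 10.1 times and LARK IP 2 4.74 times as bright. Cam entered the set through the study's list, which was drawn up from these same samples, and its enrichment is therefore not independent of that choice.

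Frq1 (CG5744, 145279_at) encodes frequenin 1, a neuronal calcium sensor that tunes transmitter release at fly motor terminals. Its signal was 63.6 and 123.7 in LARK IP and 11.1 and 40.8 in total RNA. The groups did not overlap, but total RNA 2 was 3.68 times total RNA 1, and LARK IP 1 exceeded total RNA 2 by only 1.56 times. The log2 ratios within each lysate were 2.44 and 1.58, a mean of 2.01 ± 0.60 (SD, n = 2) or 4.02-fold (limma, SE 0.27, adjusted p = 0.00780).

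Nckx30C (CG18660) encodes a potassium-dependent sodium/calcium exchanger, which carries calcium out of the cell and is known from fly photoreceptors and brain neurons. Its brighter probe set, 151600_at, read 57.9 and 226.3 in LARK IP and 5.3 and 56.6 in total RNA. LARK IP was higher within each lysate, with log2 ratios of 3.27 and 1.98, a mean of 2.63 ± 0.91 (SD, n = 2) or 6.17-fold (limma, SE 0.32, adjusted p = 0.00404). The groups barely separated. Total RNA 2 was 10.7 times total RNA 1, as large a step as the enrichment in replicate 1, and LARK IP 1 was 1.02 times total RNA 2. In bulk samples such as these, a difference between lysates in the number of cells that express a gene and in RNA per cell cannot be told apart.

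The other probe set of Nckx30C, 142518_at, did not show this. It read 7.5 and 4.1 in LARK IP and 6.5 and 8.0 in total RNA, so that the groups overlapped and 1 of the 4 values lay under background. The log2 ratios were 0.19 and -0.84, a mean of -0.33 ± 0.73 (SD, n = 2; limma, adjusted p = 0.875). The pair of probe sets thus disagreed for 1 gene. Which transcript forms of Nckx30C each detects is not given in the sources used here, and RefSeq (Release 6) records 5 protein products for the gene.

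The other exchanger, Calx (CG5685, 143737_at), a sodium/calcium exchanger needed in fly photoreceptors, was too dim to be tested. It read 3.3 and 2.0 in LARK IP and 4.6 and 7.2 in total RNA, and only total RNA 2 was above background. The log2 ratios were -0.40 and -1.51 (mean -0.96 ± 0.79, SD, n = 2), and that of replicate 1 compared a pair of values under background, so no fold is given. In a fit over all 13966 gene probe sets its adjusted p was 0.872 (limma).

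The calcium stores gave no enrichment that passed the test. RyR (CG10844, 143650_at), the ryanodine receptor that opens the stores in response to calcium, read 3.0 and 2.7 in LARK IP and 13.6 and 10.4 in total RNA. Both LARK IP samples were under background and both total RNA samples were above it, and the total RNA samples differed little. The log2 ratios were -1.92 and -1.68, a mean of -1.80 ± 0.17 (SD, n = 2). With the LARK IP values replaced by the background level, the measured mean was 2.30-fold lower in LARK IP. That is a bound on the mean of the 2 lysates and not on each of them. The difference did not pass the threshold (limma, SE 0.50, adjusted p = 0.132). RyR passed the filter on low signals only through total RNA; its LARK IP signals alone would not have passed it.

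Itpr (CG1063, 143580_at), the inositol trisphosphate receptor, read 9.0 and 9.7 in LARK IP and 3.8 and 10.1 in total RNA. Only total RNA 1 stood apart, and the groups overlapped (log2 ratios of 1.09 and -0.05; mean 0.52 ± 0.81, SD, n = 2; limma, adjusted p = 0.748). That total RNA 1 value was under background, so the Itpr ratio of replicate 1 rests on a value under background. SERCA (CG3725, 153024_at), the pump that refills the endoplasmic reticulum, read 15 and 5.4 in LARK IP and 9.5 and 7.6 in total RNA. The LARK IP samples lay on either side of total RNA, and the log2 ratios had opposite signs, 0.62 and -0.44 (mean 0.09 ± 0.75, SD, n = 2; limma, adjusted p = 0.978).

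CanA1 (CG1455, 143579_at), a catalytic subunit of calcineurin, was the only one of the 3 calmodulin effectors among the members with a probe set. It read 7.2 and 0.8 in LARK IP and 3.4 and 2.8 in total RNA, above background on 1 array only. Its log2 ratios, 0.93 and -1.17, had opposite signs (mean -0.12 ± 1.49, SD, n = 2), and it was too dim to be tested. The adjusted p was 0.995 in the fit over all gene probe sets (limma).

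**Figure D2:**
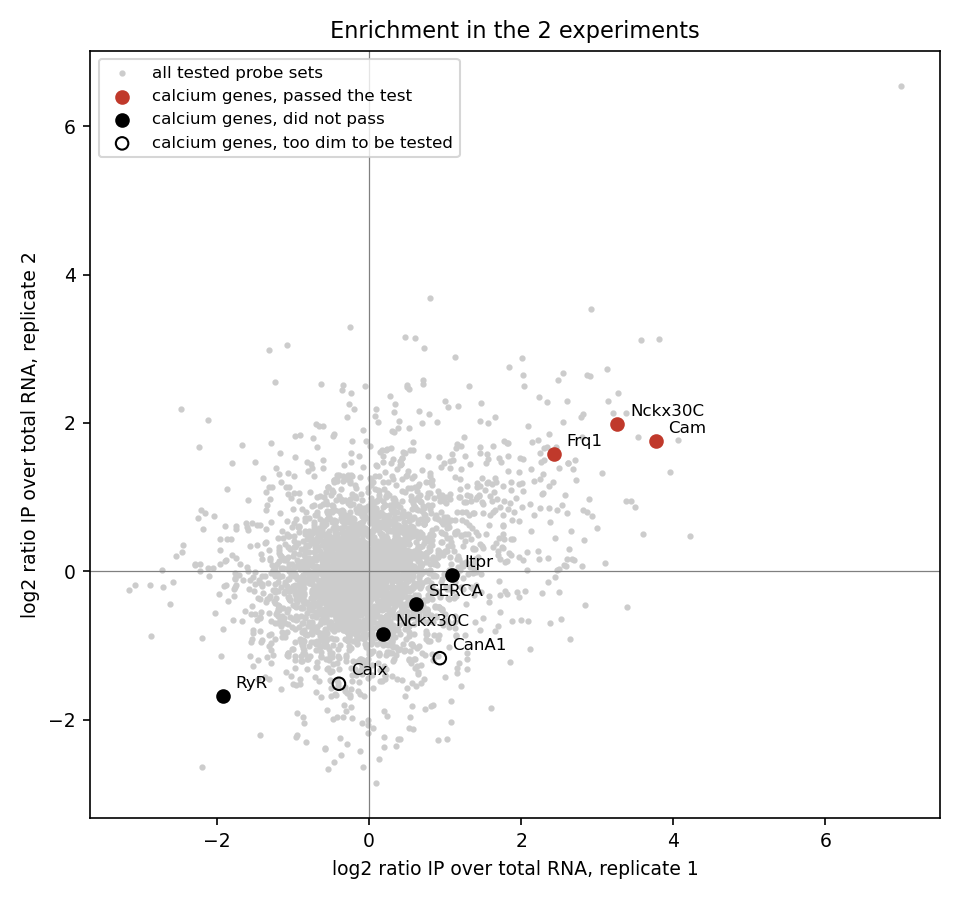
Log2 ratio of LARK IP over total RNA in replicate 1 (horizontal) against replicate 2 (vertical), in grey for the 3492 tested probe sets and in colour for the calcium genes (red, passed the test; black, did not; open, too dim to be tested). Cam, Frq1 and 1 probe set of Nckx30C lie at 2.44 to 3.77 in replicate 1 and 1.58 to 1.98 in replicate 2, RyR at -1.92 and -1.68, and each of the other 5 within 1 of 0 in at least 1 experiment.

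Taking the 7 tested probe sets as a group, 3 (42.9%) passed the test as higher in LARK IP, against 2.69% of all 3492 tested probe sets. As lower 0 of 7 passed in limma, where 0.172% of all tested probe sets did, and 1 of the 7, RyR, had an unadjusted p under 0.05 with a negative ratio. A log2 ratio of at least 1 in both replicates was seen in the same 3 of 7, against 3.47% of all tested probe sets. Both LARK IP samples were above both total RNA samples for 3 of 7, where 15.4% of all tested probe sets were, and below both for RyR alone, where 17.4% were. The median log2 ratio was 0.52 for the 7 and -0.04 for all tested probe sets. As the 10 genes were assembled with results of these data known and Cam through the list of targets, these counts describe the members and are no independent sign of enrichment among calcium genes.

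The spread between arrays of 1 group was large for several members. Total RNA 2 differed from total RNA 1 by at least 1 on the log2 scale for 3 of the 7 tested probe sets (Frq1, Nckx30C 151600_at and Itpr, each higher in total RNA 2), against 21.3% of all tested probe sets. LARK IP 2 and LARK IP 1 differed as much for 3 of 7 (Cam and SERCA lower in LARK IP 2, Nckx30C 151600_at higher), against 20.0%. For comparison, the median size of these differences over all tested probe sets was 0.52 between the total RNA and 0.51 between the LARK IP samples, and that of the log2 ratio was 0.43 in each experiment. All 3 enriched members had their higher ratio in replicate 1.

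**Figure D3:**
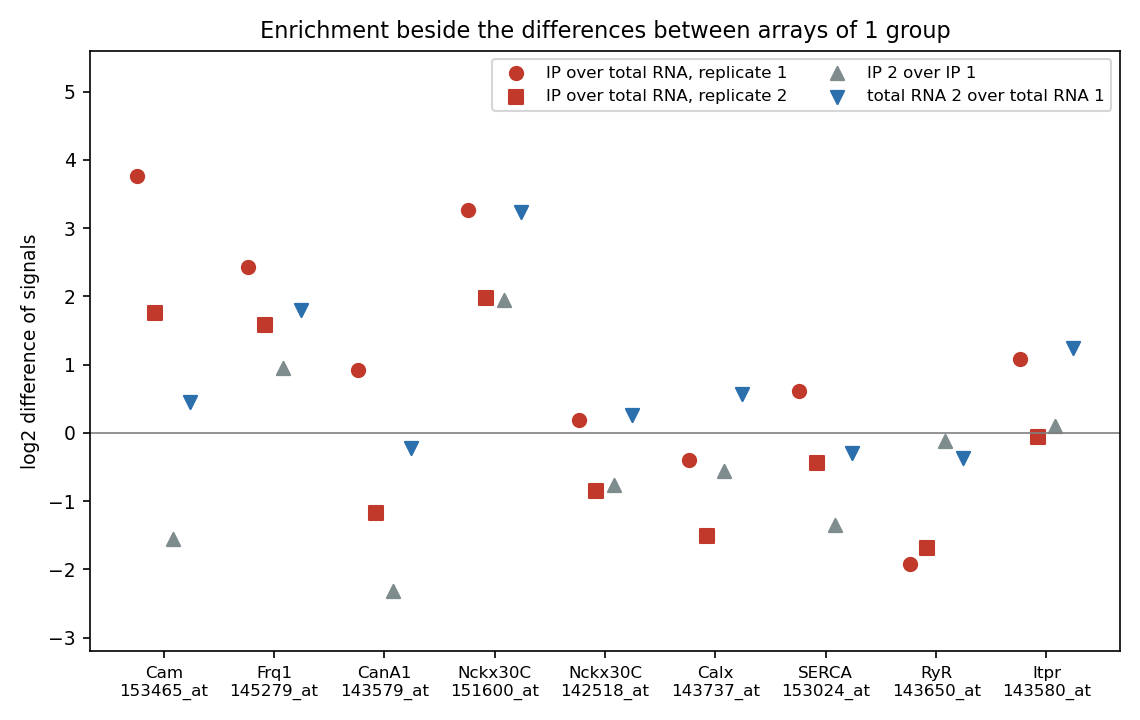
Log2 differences of signal for each calcium gene probe set: LARK IP over total RNA in replicate 1 (red circles) and replicate 2 (red squares), LARK IP 2 over LARK IP 1 (grey triangles) and total RNA 2 over total RNA 1 (blue triangles). For Nckx30C 151600_at the difference between total RNA samples is as large as the enrichment in replicate 1 (3.27). The RyR ratios of -1.92 and -1.68 and its LARK IP difference rest on LARK IP signals under background.

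The calls did not hold when the pairing of samples by lysate was left out. With the block kept, they were also lost in a fit without the variance trend and after quantile normalization. Without the block, the adjusted p was 0.460 for Cam, 0.809 for Frq1 and 0.950 for Nckx30C 151600_at (limma), the log2 ratios staying as they were. Leaving out total RNA 1 gave 1.11 for Frq1 and 1.01 for Nckx30C, and leaving out total RNA 2 gave 2.91 and 4.24. Without LARK IP 1 the Nckx30C ratio was 3.60 and without LARK IP 2 it was 1.65, with 2.48 and 1.53 for Frq1. Cam ranged from 1.99 without LARK IP 1 to 3.54 without LARK IP 2. None of the 3 passed with any array left out; these fits had 3 arrays and also no block, and the share of each change in the loss was not tested.

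Signs of RNA quality and cell type markers were read on the same arrays. The ratio of the 3′ to the middle probe set of GAPDH was 8.28 and at least 10.3 in LARK IP (the middle probe set of LARK IP 2 was under background) and 5.71 and 7.04 in total RNA, and that of eIF-4a 5.29 and 10.1 in LARK IP and 3.27 and 6.83 in total RNA, higher in LARK IP in both lysates. Among 9 neuronal markers with a probe set, 5 were above background in both total RNA samples, and their summed signal was 237.0 and 492.0 in LARK IP and 64.4 and 176.9 in total RNA, higher in LARK IP like the enriched members and higher in replicate 2 than in replicate 1 like Frq1 and Nckx30C. Each marker was read from 1 probe set, although the 9 neuronal markers had 15. Of 6 tested neuronal markers 2, ChAT and futsch, passed as higher, where 2.69% of all tested probe sets did. At an unadjusted p under 0.05 (limma), 4 of the 6 were higher and 0 lower, and their median log2 ratio was 1.31. The ChAT probe set read 146 and 330.5 in LARK IP and 23.3 and 66.4 in total RNA, a mean log2 ratio of 2.45. Another tested probe set of ChAT did not show this, with log2 ratios of 0.07 in replicate 1 and 0.47 in replicate 2. Without ChAT and futsch the sum over the other 7 was 45.7 and 65.6 in LARK IP and 30.5 and 58.2 in total RNA. The list was not uniform: elav, a marker of all neurons, read 7.0 and 12.7 in LARK IP against 1.5 and 7.2, whereas Rbp9 read 7.1 and 15 against 8.1 and 26.1, and VGlut 2.2 and 0.8 against 7.1 and 6.4, both lower in LARK IP in each lysate. The part of RNA quality and of these markers in the results was not tested.

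Markers of other cells were read in the same way. The summed signal of 7 glial markers was 312.0 and 209.5 in LARK IP and 337.1 and 185.0 in total RNA. For 5 photoreceptor markers it was 98.0 and 160.3 in LARK IP and 131.5 and 240.4 in total RNA, lower in LARK IP and higher in replicate 2. Only the 10 muscle markers summed to more in LARK IP in both lysates, at 73.6 and 58.6 against 69.4 and 47.6, with 2 of them above background in both total RNA samples. For 6 fat body and 7 haemocyte markers, of which 1 each was above background in both total RNA samples, the sums were 24.1 to 25.4 and 17.4 to 32.3 in LARK IP and 31.0 to 51.1 and 31.1 to 35.5 in total RNA. In these lists 0 of 15 tested markers passed in limma in either direction (an unadjusted p under 0.05 was seen for 1 higher and 2 lower markers), and no marker read 0, the lowest signal being 0.1.

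Further genes of calcium signalling were taken from a list of 87 by role, with the brightest probe set for each gene. Of these, 66 had a probe set and 35 were tested: 3 passed in limma as higher in LARK IP and 0 as lower, against 2.95% and 0.172% of the 2911 tested genes. At an unadjusted p under 0.05, 2 were lower, and the median log2 ratio was 0.11, against -0.04 for all tested genes. Cbp53E, a calbindin-like EF-hand protein, read 81.1 and 57.7 in LARK IP and 20.6 and 28.6 in total RNA, groups that did not overlap (log2 ratio 1.46 ± 0.67, SD, n = 2; limma, adjusted p = 0.0323). Pkc98E, a protein kinase C that responds to diacylglycerol, read 389.7 and 541.5 in LARK IP and 124.9 and 311.4 in total RNA (1.22 ± 0.59, SD, n = 2; limma, adjusted p = 0.0363). Its other probe set, 142305_at, was too dim to be tested. It read 2.8 and 15.3 in LARK IP and 1.1 and 7.6 in total RNA, groups that overlapped (log2 ratios of 0.92 and 0.94). The phospholipase C gene norpA, whose enzyme makes inositol trisphosphate in phototransduction, read 218.9 and 1002.1 in LARK IP and 20.4 and 227.5 in total RNA. Its LARK IP 1 value was below total RNA 2, and the enrichment showed only within each lysate (2.75 ± 0.88, SD, n = 2; limma, adjusted p = 0.00194). A further 2 probe sets of norpA were dimmer, with 1 and 2 of their total RNA values under background. Of these, 151505_s_at was tested and did not pass (log2 ratio 1.485, limma, adjusted p = 0.192), and 142250_at was too dim to be tested. All 3 of these genes, and all 3 enriched members, stand in the study's list of targets, and norpA was named only from it, so their direction is not independent evidence. None of the 3 passed without the block (limma, adjusted p of 0.666 to 0.950) or with any array left out. With total RNA 1 left out the log2 ratio was 1.04 for norpA and 0.56 for Pkc98E, and with total RNA 2 left out it was 4.47 and 1.87. Leaving out LARK IP 2 gave 1.66 for norpA.

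**Figure D4:**
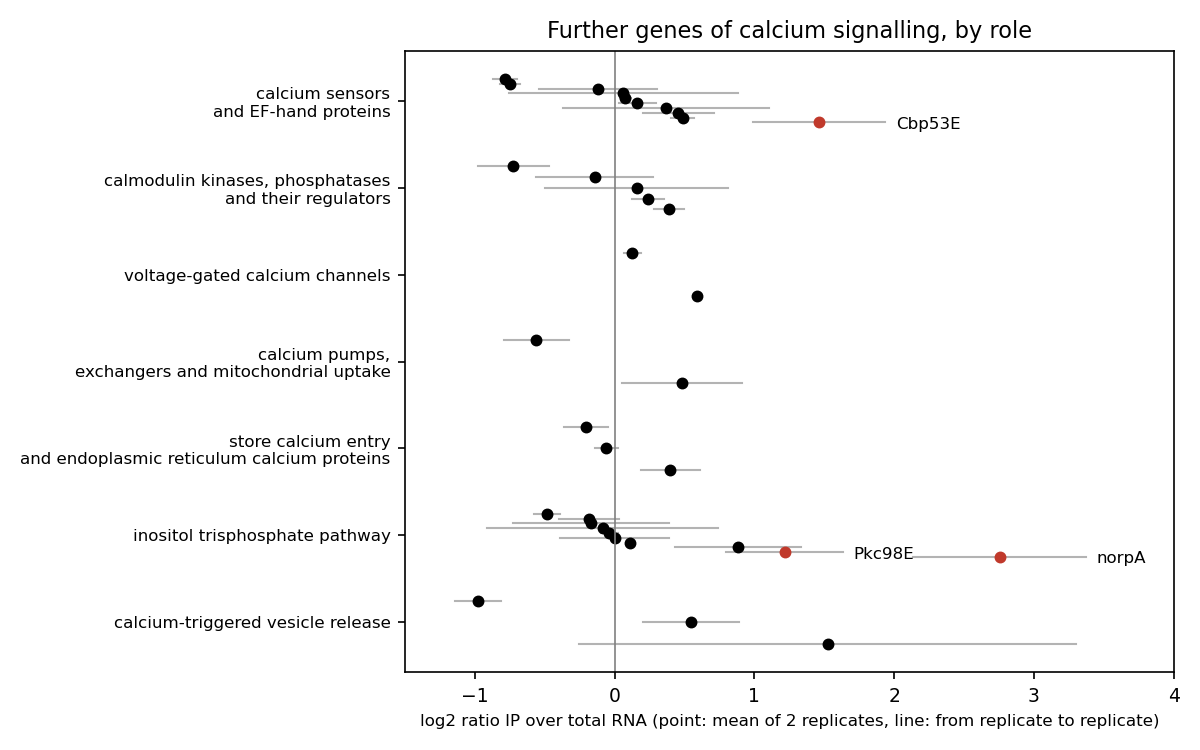
Log2 ratio of LARK IP over total RNA for the 35 tested genes of the wider calcium list, grouped by role; points are means of the 2 replicates, lines run from one replicate to the other, and red marks genes that passed the test. Cbp53E, Pkc98E and norpA stand at 1.46, 1.22 and 2.75, and the means of the other 32 genes lie between -0.98 and 1.52.

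By role, 1 of 10 tested genes listed under sensors and EF-hand proteins passed (median log2 ratio 0.12), where 2.95% of the 2911 tested genes passed as higher. That list was broader than its name, with igl and Cals among its genes. Given as log2 ratios, igl, a calmodulin-binding protein related to neurogranin, read 0.49, Cals (calsyntenin) -0.12 and Cpn (calphotin, of photoreceptors) -0.78. Of 5 tested kinases, phosphatases and regulators of the calmodulin branch 0 passed in limma (0 at an unadjusted p under 0.05, median log2 ratio 0.16), with 0.39 for sra, a regulator of calcineurin, -0.73 for CanB, its regulatory subunit, and 0.24 for Strn-Mlck, a myosin light chain kinase.

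Of 2 tested voltage-gated channel genes and 2 tested pump or exchanger genes, and of the 3 tested store genes, 0 passed in limma (0 at an unadjusted p under 0.05). The channel subunits Ca-alpha1D and Ca-beta read 0.59 and 0.13, and Ca-alpha1T was too dim to be tested. The pumps SPoCk, of the secretory pathway, and PMCA, of the plasma membrane, read 0.48 and -0.56, and CG14744 was too dim. The store genes, namely the chaperone Cnx99A, the store sensor Stim and the entry channel Orai, read 0.40, -0.20 and -0.06.

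In the inositol trisphosphate branch 2 of 10 tested genes passed, Pkc98E and norpA, against 2.95% of the 2911 tested genes, with a median of -0.02. Since norpA had a named probe set only through the study's list of targets, this count is not independent of that list. The phototransduction channel genes trp and trpl, which act downstream of norpA, read -0.48 and 0.00, and the inositol phosphatase Ipp -0.18. Of 3 tested vesicle release genes 0 passed in limma (1, unc-13, at an unadjusted p under 0.05): the priming factor unc-13 read -0.98 (limma, adjusted p = 0.0906) and the annexins AnxB9 and AnxB10 0.55 and 1.52. The AnxB10 value came from replicate 2, where total RNA read 0.5 (log2 ratio 3.30, against -0.25 in replicate 1). Its probe set, 154336_at, also stands in the study's list of targets but did not pass here (limma, adjusted p = 0.457).

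The members were long genes. In RefSeq (Release 6) their spans from first to last base ran from 7.45 kb (CanA1) to 37.4 kb (Calx), against a median of 3.11 kb over 2903 of the 2911 tested genes. The 3 enriched members spanned 19.4 kb (Cam), 19.4 kb (Frq1) and 35.0 kb (Nckx30C), lengths that 10.1%, 10.2% and 4.99% of tested genes exceeded. Of the other members, RyR spanned 27.7 kb, Itpr 22.3 kb and Calx 37.4 kb, longer than Cam and Frq1, whereas SERCA (10.8 kb) and CanA1 (7.45 kb) were shorter than all 3 enriched members. The 10 genes lie on chromosome X (Frq1), 2L (Nckx30C), 2R (Cam, RyR and SERCA), 3R (CanA1, Calx and Itpr) and 4 (CaMKII and CaMKI).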

How the data were processed

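Per the labels, RNA was labelled with an Affymetrix one-cycle kit, and the deposited table holds signal intensities that the authors computed with MAS5 and normalized by the total intensity of each array; the genome build behind the probe sets is not given in the sources used here. Of 14010 probe sets, 44 were controls and 12442 had 1 gene symbol; 32 without a symbol were named from the study's list of targets, leaving out the rows of its experiment 2 alone, where 58 of 62 comparable names differed from the annotation. Scan files and the authors' detection and change calls were not used. Signals were turned into log2(signal + 0.8), where 0.8 is the median over arrays of the 25th percentile. LARK IP and total RNA (2 arrays each) were compared with limma 3.58.1 in R 4.3.3 (lmFit, eBayes with a variance trend, 1 residual and 7.85 prior degrees of freedom). The replicate number was a block, since the series' design says that samples with 1 number share a lysate. Any other difference between the 2 experiments, such as in hybridisation, goes with the lysate and cannot be told apart from it. Differences between the LARK IP samples and between the total RNA samples correlated with r = 0.36 across tested probe sets. The 4 arrays limit the precision: an exact two-sided permutation test of 2 against 2 cannot go below 0.333. Background was the 95th percentile of 19 control probe sets on the highest array. Every member probe set is named, and of the wider list each gene that passed and up to 3 others per role with the highest signals. Members and lists were chosen with earlier results of these data known. Sequence features of the members were not analysed here.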

Additional observations from a re-analysis of the deposited data

How the results depend on the processing

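The 3 enriched calcium gene probe sets depended on the fit. With no replicate block, so with the pairing by lysate left out, 0 passed in limma (3 at an unadjusted p under 0.05), with 0 higher and 0 lower of all tested probe sets (137 and 38 unadjusted) and 0 of the wider calcium list. Quantile normalization left 0 members (3 unadjusted; adjusted p 0.0943 for Cam, 0.0727 for Frq1, 0.0660 for Nckx30C), 12 and 0 of all and 1 of the list. A fit without the variance trend left 0 members (3 unadjusted), 1 and 0 of all and 0 of the list. With each array left out in turn, 0 to 0 passed for members, for the list and for all tested probe sets in either direction, 1 to 3 members keeping an unadjusted p under 0.05. The members stayed at 3 with no filter, the top 15% filter, either pseudocount and, chosen after seeing the data, a limit to those above background in both total RNA samples. The count of lower probe sets, 6 of all, became 0 with the top 15% filter, 2 with a pseudocount 0.25 times as large and 16 with one 4 times as large, and 3 under that limit. The top 15% filter left 1 higher gene of the list, and 4 times the pseudocount called 1 lower, unc-13 (adjusted p 0.0447). No named ratio that passed changed sign. For RyR, whose LARK IP signals lie under background, the replicate ratios were -1.44 and -1.21 with 4 times the pseudocount and -2.18 and -1.95 without one, and the adjusted p was 0.0566 with 4 times it and 0.0716 under that limit. Dim probe sets limit what can be said of Calx, CanA1 and RyR.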
